A study of Mus musculus with 18 samples.

Results

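The short-chain collagens of the mouse are the 2 chains of collagen VIII, encoded by Col8a1 and Col8a2, and the single chain of collagen X, encoded by Col10a1. These 3 of the 54281 genes in the count table were followed in whole descending aorta, which holds intima, media and adventitia, of 18 male C57BL/6 mice. They are a gene family that was selected on the fold changes of Col8a1 and Col10a1 in HGPS over 2-mo WT aortas, which were already known, and Col8a2 was added as the other collagen VIII chain. The values of that comparison are therefore given as a description, without a test. HGPS mice carry the allele labelled LMNAG609G at the endogenous Lmna gene, which makes their cells produce progerin, a truncated Lamin A, in every tissue that expresses the gene. The labels do not give the copy number, and the study describes the model as homozygous. By the labels, age was 64 to 75 d in the 6 HGPS mice and 609 to 762 d in the 6 24-mo WT mice. The 6 2-mo WT mice comprised 5 aged 62 d and 1 aged 95 d. Total counts ranged from 12413229 to 30844775 per mouse.

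Collagens VIII and X differ from the fibrillar collagens in that their triple helix is short, is interrupted and ends in a C1q-like globular domain, which brings 3 chains together. The trimers do not form banded fibrils but assemble into open, net-like lattices. Collagen VIII is known from the subendothelium, from Descemet's membrane of the cornea and from the arterial wall, where smooth muscle cells make it during migration and after injury. Collagen X is the classical product of hypertrophic chondrocytes in the growth plate, and its gene is a known target of the transcription factor RUNX2.

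In the GRCm38 assembly with GENCODE M21 annotation, Col8a1 (ENSMUSG00000068196) lies on the minus strand at chr16:57624258-57754737 and its longest transcript of 5108 bases has 4 exons. Col8a2 (ENSMUSG00000056174) lies on the plus strand at chr4:126286793-126314330 and its longest transcript of 4332 bases also has 4 exons. Col10a1 (ENSMUSG00000039462), with 3 exons and a transcript of 3130 bases, lies on the plus strand at chr10:34389981-34397085. It sits inside Nt5dc1, a protein-coding gene on the opposite strand. The libraries were stranded, but the strand setting of the quantification is not given in the sources used here, so the assignment of reads between this pair cannot be checked. Nt5dc1 itself had 197 to 549 counts per mouse and log2 fold changes of -0.06 in HGPS and -0.21 at 24 mo against 2-mo WT. The small size of the chains is visible in the annotated transcripts. The coding sequence has 744 codons in Col8a1, 699 in Col8a2 and 680 in Col10a1, against 1453 in the fibrillar chain Col1a1. The longest unbroken run of Gly-X-Y triplets, the repeat of the collagen helix, is 61, 60 and 61 triplets in the short chains and 338 in Col1a1. Col8a1 and Col8a2 encode the same residue at 58.2% of their aligned positions, and at 72.3% over their last 130 codons, where the C1q-like domain lies. Col10a1 is 54.2% identical to Col8a1 and 53.3% identical to Col8a2.

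The region around the transcription start, from 250 bases before it to 50 after, was taken from RefSeq (GRCm38.p6) for all 3 genes and compared with 32851 promoters of the same length. GC content was 71.7% in Col8a2, 60.3% in Col8a1 and 44.3% in Col10a1, with a median of 52.7% over all promoters. The letters TATAAA, searched on the strand of the gene, stood in Col10a1 at position -32 from the start and in neither collagen VIII gene, and 8.32% of all promoters held them. The letters GGGCGG, known as the GC box and searched on both strands, matched at 4 positions in Col8a1 and at 4 in Col8a2, some of which overlap, and at none in Col10a1, with 35.7% of promoters holding them. The RUNX core TGTGGT, searched on both strands, matched once, in Col8a1 at position -230, and was held by 16.8% of promoters. The SMAD box CAGACA also matched once, in Col8a1 at position -103, and 21.0% of promoters held it. Neither the AP-1 letters TGANTCA (7.81% of promoters) nor a CArG box (1.63%) matched in any of the 3 genes on either strand. A match of letters is not a binding site, and the absence of a match covers only these 300 bases. A stretch of 30 bases is shown for the TATA match of Col10a1 and for a GC box of each collagen VIII gene, which set their promoters apart, and for the RUNX match, which stood in Col8a1 and not in Col10a1. The match is in capitals, each stretch is read 5′ to 3′ on the strand of its gene, and the GC box of Col8a1 lies on the opposite strand, so that it reads CCGCCC. In the order printed they lie at chr10:34389937-34389966, chr4:126286689-126286718, chr16:57754786-57754815 (minus strand) and chr16:57754950-57754979 (minus strand).
Col10a1, TATAAA at -32: ggaagaaaacagTATAAAtactccagggca
Col8a2, GGGCGG at -93: tgcgctgcggacGGGCGGggcgcgcaccct
Col8a1, CCGCCC at -66: gcagcccgcccgCCGCCCccgctcaatccc
Col8a1, TGTGGT at -230: acctttcccttcTGTGGTctctgcctttct

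Col8a1 was the member with the widest range of levels over the 3 groups. Expression is given as CPM, counts divided by the library total in units of 1e6 after scaling of the libraries by TMM. In the 6 2-mo WT mice, Col8a1 stood at 15.7, 16.6, 18.7, 19.1, 20.4 and 24.1 CPM, with a mean of 19.1 ± 2.99 CPM (SD, n = 6). In the 24-mo WT mice it stood at 27.95, 34.5, 37.8, 40.5, 42.5 and 42.8 CPM, with a mean of 37.7 ± 5.70 CPM (SD, n = 6). In the HGPS mice it stood at 63.5, 70.8, 81.9, 135, 181 and 255 CPM, with a mean of 131 ± 75.6 CPM (SD, n = 6). The 3 groups did not overlap, and every 24-mo WT mouse lay between the highest 2-mo WT mouse and the lowest HGPS mouse. The log2 fold change was 2.78 (SE 0.28) in HGPS against 2-mo WT, which is 6.86-fold, and 1.80 (SE 0.27) in HGPS against 24-mo WT. These comparisons share the HGPS mice on which the gene was chosen and are not tested. Of all 15210 tested genes, 21.9% had groups that did not overlap in the first of them and 22.2% in the second. Bulk RNA cannot tell more cells that express a gene from more of its RNA per cell.

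Between the ages of WT mice, Col8a1 was 1.97-fold higher at 24 mo, a comparison that was not used to choose the gene but shares the 2-mo WT mice with the one that was. Its log2 fold change was 0.98 (SE 0.27) and its adjusted p was 0.0240 (edgeR's quasi-likelihood test, Benjamini-Hochberg over all tested genes). That is past 0.05, as were 11.7% of all tested genes, but not past the study's cut-offs of 1.5-fold with an adjusted p of 0.001, which 2% of tested genes passed. All 6 24-mo WT mice lay above all 6 2-mo WT mice, as in either direction for 6.28% of tested genes, and a two-sided exact permutation test gave p = 0.00216, the smallest that 6 mice against 6 can give, or 0.00649 adjusted over the 3 genes. The fit shares its estimate of the spread over the 3 groups, and with the WT mice alone the adjusted p of edgeR's test was 9.35e-05 at a log2 fold change of 0.98. With scores of the fat and skeletal muscle markers added as covariates it was 0.268 at a log2 fold change of 0.79, and without mouse 2 of the 2-mo WT group it was 0.054.

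**Figure D1:**
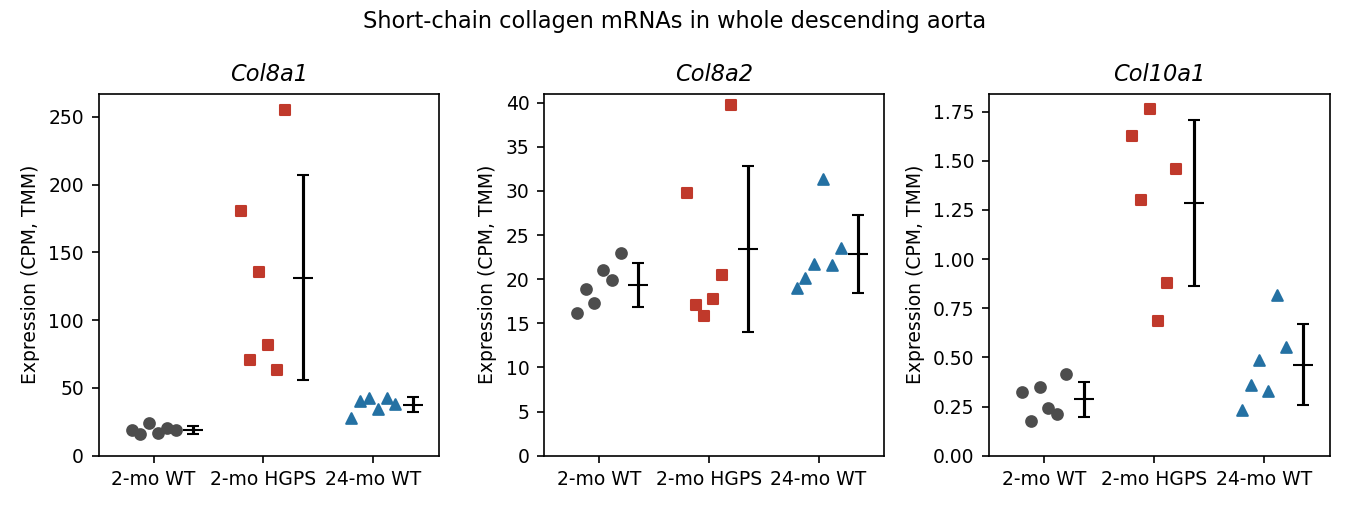
Expression of the 3 short-chain collagen genes in CPM, on linear axes from 0, for each of the 6 mice of each group, with the group mean and SD as a black mark and bar. Col8a1 lay between 15.7 and 24.1 CPM in 2-mo WT, between 27.95 and 42.8 CPM in 24-mo WT and between 63.5 and 255 CPM in HGPS, the groups of Col8a2 overlapped, and Col10a1 reached 1.76 CPM at most.

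Col8a2, the other chain of collagen VIII, did not follow this pattern. It stood at 16.2, 17.3, 18.9, 19.9, 21.1 and 22.98 CPM in 2-mo WT mice (19.4 ± 2.49 CPM, SD, n = 6). In HGPS mice it stood at 15.8, 17.1, 17.7, 20.4, 29.8 and 39.8 CPM (23.4 ± 9.45 CPM, SD, n = 6). In 24-mo WT mice it stood at 18.98, 20.2, 21.7, 21.7, 23.5 and 31.3 CPM (22.9 ± 4.41 CPM, SD, n = 6). The groups overlapped throughout, and 4 of the 6 HGPS mice lay inside the range of 2-mo WT or less than 1 CPM below it. The log2 fold change was 0.27 (SE 0.19) in HGPS against 2-mo WT and 0.03 (SE 0.19) in HGPS against 24-mo WT. At 24 mo against 2-mo WT it was 0.24 (SE 0.19), which did not pass edgeR's test (adjusted p = 0.482), and the exact permutation test gave p = 0.0996 before and after adjustment over the 3 genes. No order of the groups could be read from Col8a2 at this spread.

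Because collagen VIII trimers are built from the products of these 2 genes, the ratio of Col8a1 to Col8a2 was taken in each mouse, on CPM per kb of the longest transcript. In 2-mo WT mice the ratio was 0.853 ± 0.206 (SD, n = 6) and ranged from 0.669 to 1.18. In 24-mo WT mice it was 1.43 ± 0.308 (SD, n = 6) and ranged from 0.934 to 1.70. In HGPS mice it was 4.65 ± 1.65 (SD, n = 6) and ranged from 2.64 to 7.26, above every WT mouse of either age. The ages of WT mice overlapped, but the ratio was 1.68-fold higher at 24 mo (log2 difference 0.75, SE 0.195, two-sided exact permutation test, p = 0.00866). The HGPS ratio carries the Col8a1 values that chose the gene and was not tested. The comparison of the WT ages shares the 2-mo WT mice with that choice. It also contains the Col8a1 difference with age given above, so it is not a separate result. Where the ratio stands relative to 1 depends on the transcript length used, and over the merged exons of each gene the means were 0.576, 0.967 and 3.15 in 2-mo WT, 24-mo WT and HGPS.

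**Figure D2:**
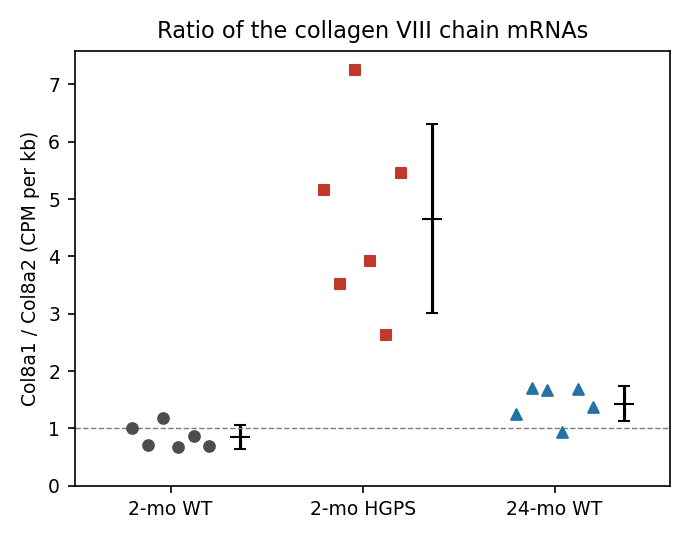
Ratio of Col8a1 to Col8a2 in CPM per kb of the longest transcript, on a linear axis from 0, for each of the 6 mice of each group, with group mean and SD in black and a dashed line at equal levels. The HGPS mice lie between 2.64 and 7.26, above all WT mice, and the WT ages overlap between 0.934 and 1.18.

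Col10a1 was present at trace levels. It had 3 to 8 counts in each 2-mo WT mouse, 4 to 16 in each 24-mo WT mouse and 21 to 38 in each HGPS mouse. It passed the filter of at least 10 counts in at least 6 mice only through the HGPS group, since 6 HGPS mice, 0 2-mo WT mice and 1 24-mo WT mouse reached 10 counts, and a gene that passes in this way had to be higher there. In CPM, the 2-mo WT mice stood at 0.178, 0.214, 0.243, 0.321, 0.349 and 0.413, with the 95-d-old mouse highest. The 24-mo WT mice stood at 0.234, 0.327, 0.359, 0.486, 0.555 and 0.815 CPM. The HGPS mice stood at 0.688, 0.877, 1.30, 1.46, 1.63 and 1.76 CPM. The HGPS mice thus lay above all 2-mo WT mice but overlapped with the highest 24-mo WT mouse. The log2 fold change was 2.12 (SE 0.33), or 4.34-fold, in HGPS against 2-mo WT and 1.44 (SE 0.31) in HGPS against 24-mo WT, both without a test. Between the WT ages it was 0.68 (SE 0.36), which did not pass edgeR's test (adjusted p = 0.245), with p = 0.0736 in the exact permutation test and 0.0996 after adjustment over the 3 genes. With so few counts per WT mouse, a change with age smaller than the spread between mice was not detectable at this depth.

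The short-chain collagens are minor collagen mRNAs of the aorta. Among 44 collagen genes ranked by mean CPM per kb in 2-mo WT, Col8a2 stood at rank 21 with 4.48 ± 0.575 CPM per kb (SD, n = 6), Col8a1 at rank 22 with 3.74 ± 0.585 CPM per kb (SD, n = 6) and Col10a1 at rank 31 with 0.0915 ± 0.0286 CPM per kb (SD, n = 6). Col3a1, a fibrillar collagen of the vessel wall, was first with 1348 ± 187 CPM per kb (SD, n = 6). In HGPS the ranks were 16 for Col8a1, 19 for Col8a2 and 28 for Col10a1, and in 24-mo WT they were 18, 19 and 29. Col8a1 made up 0.0856% of the summed collagen CPM per kb in 2-mo WT (0.0700% to 0.109% over mice), 0.309% in 24-mo WT (0.188% to 0.405%) and 0.731% in HGPS (0.347% to 1.09%). The sum that these shares are divided by differed between the groups, with 4397 ± 428 CPM per kb in 2-mo WT, 3437 ± 645 in HGPS and 2467 ± 391.99 in 24-mo WT (SD, n = 6 each).

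Most of the other collagens had negative log2 fold changes, and most of these did not pass the cut-offs. Of 41 other collagen genes, 31 were tested, and 24 of these were below 0 in HGPS against 2-mo WT (median -0.31, against 0.00 over all tested genes). In edgeR's test 2 rose and 5 fell past the cut-offs, or 22.6% of those tested, where 9.5% of all tested genes were called, 5.27% higher and 4.23% lower. The rises were Col11a1, a minor fibrillar chain of cartilage (log2 fold change 3.86, SE 0.73), and Col12a1, a collagen of fibril surfaces (1.18, SE 0.25). Col11a1, at 1 to 432 counts per mouse, passed the count filter only with the HGPS mice, so its call adds no support to the 22.6%. Neither rise was called with the 2-mo groups alone or with the fat and skeletal muscle scores as covariates. Of 18 fits with 1 mouse left out, Col11a1 was called in 13, not without 2-mo WT mouse 1, 3, 4, 5 or 6, and Col12a1 was called in 4, those without HGPS mouse 2 or 5 or 24-mo WT mouse 5 or 6. The falls included Col19a1 (-1.47, SE 0.17), Col6a6 of the beaded-filament collagen VI (-1.33, SE 0.18), the basement membrane chain Col4a6 (-0.74, SE 0.11) and Col14a1 (-0.67, SE 0.11). With the same covariates, Col19a1 alone of the 7 called collagens kept its call, so the other falls lost theirs as well. At 24 mo, 25 of the 31 had a negative log2 fold change (median -0.36, against 0.01 over all tested genes). In that comparison 1 was called higher and 6 lower, or 22.6% of those tested. Of all tested genes 2% were called, 1.28% higher and 0.717% lower. Col19a1 rose there (1.69, SE 0.16), and among those called lower Col3a1 (-1.66, SE 0.15), Col5a2 (-0.98, SE 0.09), Col1a2 (-0.95, SE 0.14) and Col4a5 (-0.94, SE 0.12) fell most. With the covariates 5 of the 7 called at 24 mo kept their call, and Col4a5 was among those that lost it. Col1a1, the main chain of collagen I, had log2 fold changes of -0.26 in HGPS (adjusted p = 0.479) and -0.92 at 24 mo (adjusted p = 0.0370), and Col4a1, a main basement membrane chain, of -0.41 (adjusted p = 0.00138) and -0.29 (adjusted p = 0.0439), none past the cut-offs. In this setting Col8a1, Col8a2 and Col10a1 had positive log2 fold changes in both comparisons, which share the 2-mo WT mice. Col8a1 and Col10a1 were chosen by their HGPS values. Col8a2 stood at only 0.27 (SE 0.19) in HGPS and 0.24 (SE 0.19) at 24 mo, and the latter was -0.20 with the covariates. Among the other collagens Col20a1 was also positive in both, at 0.44 and 0.44, not past the cut-offs.

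**Figure D3:**
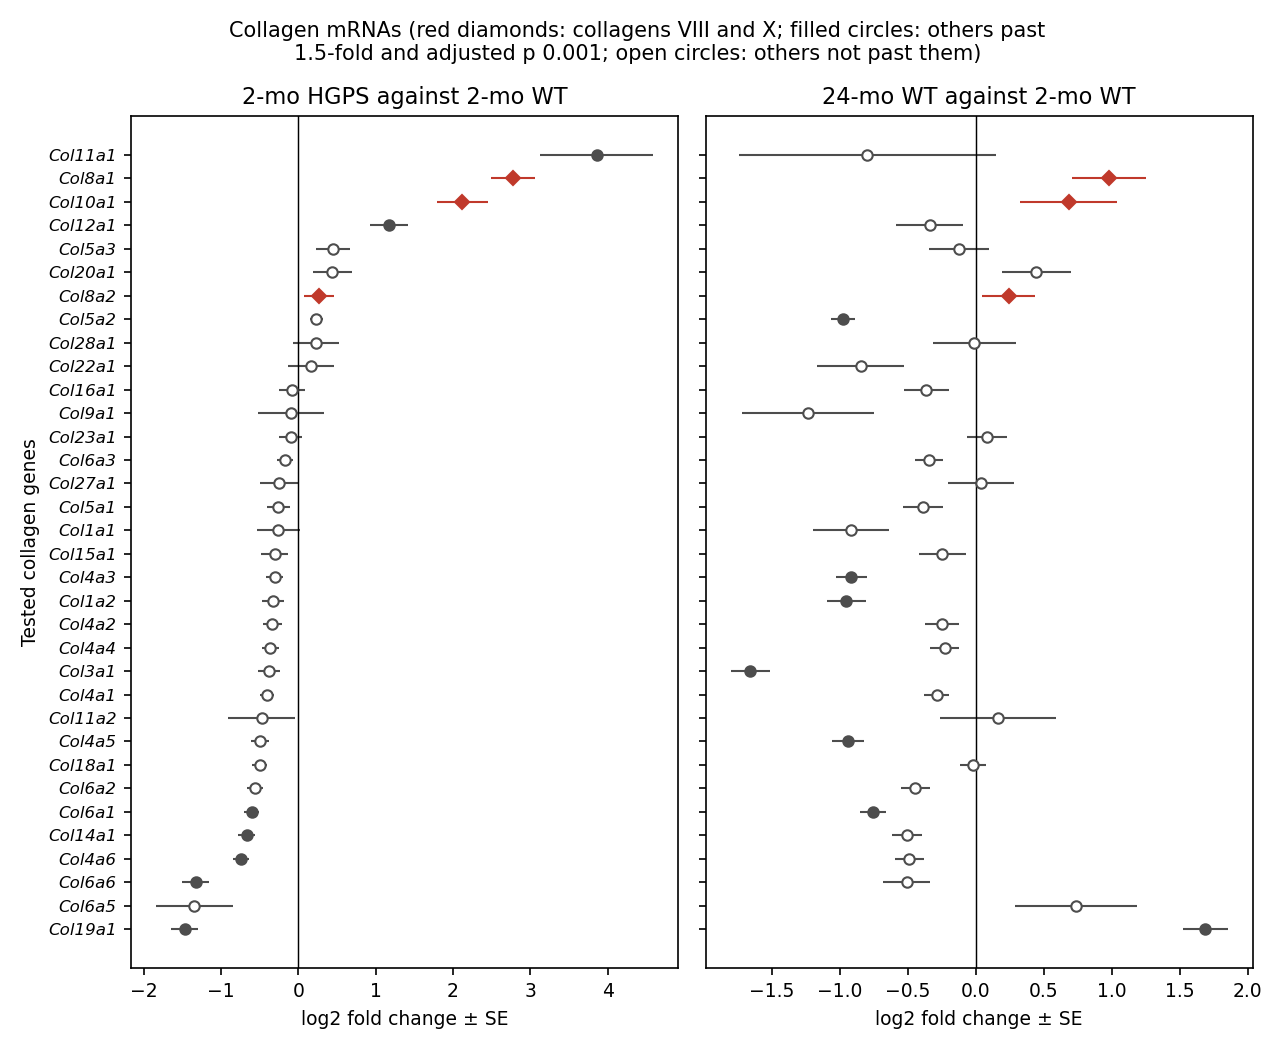
Log2 fold change with standard error for the 34 tested collagen genes, ordered by their value in HGPS against 2-mo WT (left) and with 24-mo WT against 2-mo WT in the same order (right). Red diamonds are Col8a1, Col8a2 and Col10a1, filled circles are other collagens past 1.5-fold with an adjusted p of 0.001, and open circles are other collagens not past them. Col8a1 at 2.78 and Col10a1 at 2.12 stand on the left right behind Col11a1 at 3.86.

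Too few of the other genes whose products carry a C1q-like domain were called in HGPS to compare their share with that of genes in general. Of 27 listed C1q-domain genes other than the 3 collagens, 17 were tested, and 5.88% of these were called in HGPS and 11.8% at 24 mo, against 9.5% and 2% of all tested genes. In HGPS 1 was called higher, C1qb (log2 fold change 1.07, SE 0.20), which encodes a chain of the complement component C1q made by macrophages, and none was called lower. C1qb was not called without HGPS mouse 6 or 2-mo WT mouse 4, or with the fat and skeletal muscle scores as covariates. At 24 mo none was called higher and 2 were called lower, C1qtnf6 (-1.20, SE 0.17) and C1qtnf2 (-0.67, SE 0.08), which encode secreted C1q/TNF-related proteins. C1qtnf6 was not called with the same covariates. The median log2 fold change over the tested genes of the list was -0.08 in HGPS and -0.20 at 24 mo.

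Receptors that bind collagen were also surveyed, and all 10 listed genes were tested. In HGPS, Lair1, an inhibitory collagen receptor of leukocytes, rose (log2 fold change 1.04, SE 0.20) and Itga10, a collagen-binding integrin chain of chondrocytes, fell (-1.03, SE 0.14), which is 20% of the list against 9.5% of all tested genes. Lair1 was not called without HGPS mouse 3 or 6 or 2-mo WT mouse 3, 4, 5 or 6, or with the covariates. The collagen receptor kinases had negative log2 fold changes that did not pass both cut-offs, Ddr2 at a log2 fold change of -0.43 (SE 0.08, adjusted p = 0.000401) and Ddr1 at -0.37 (SE 0.10, adjusted p = 0.00817), as did the integrin chain Itga1 at -0.42 (SE 0.07, adjusted p = 0.00018). Itga2, another collagen-binding integrin chain, stood at -0.02 (SE 0.17). At 24 mo edgeR's test and DESeq2 each called 0 of the 10, while the unadjusted p of edgeR's test was under 0.05 for 2. Levels of receptor protein were not measured in these files.

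Because collagen X marks hypertrophic cartilage, 25 further genes of that program were listed, of which 18 were tested. In HGPS 2 were called higher and 1 lower, or 16.7% against 9.5% of all tested genes. Spp1, which encodes the mineral-binding protein osteopontin and is also made by macrophages, rose with a log2 fold change of 5.12 (SE 0.37), and Phospho1, a phosphatase of matrix mineralization, with 1.22 (SE 0.24). Gli1, a transcription factor and target of Hedgehog signaling, fell (-1.13, SE 0.19). At 24 mo 3 were called higher and none lower, or 16.7% against 2% of all tested genes, namely Ibsp, the bone sialoprotein (4.43, SE 0.30), Spp1 (2.69, SE 0.39) and Pth1r, the receptor of parathyroid hormone-related protein (0.65, SE 0.11). Phospho1 was called in 9 of 18 fits with 1 mouse left out, not without HGPS mouse 1, 2, 3 or 6 or 2-mo WT mouse 2, 3, 4, 5 or 6, and Pth1r in 7, those without HGPS mouse 3, 4, 5 or 6, 2-mo WT mouse 1 or 24-mo WT mouse 2 or 3, and Pth1r was not called with the WT mice alone. With the fat and skeletal muscle scores as covariates, Phospho1 lost its call in HGPS, and Spp1 and Pth1r lost theirs at 24 mo. Known regulators of the program differed widely in level. Mef2c, a transcription factor of hypertrophy that muscle cells also express, stood at 240 ± 21.4, 165 ± 23.1 and 223 ± 24.9 CPM (SD, n = 6) in 2-mo WT, HGPS and 24-mo WT, with a log2 fold change of -0.54 in HGPS that did not pass the 1.5-fold cut-off. It was named after its values were seen. Runx2, another regulator of hypertrophy, stood at 0.741 ± 0.146, 1.18 ± 0.281 and 1.32 ± 0.465 CPM (SD, n = 6) in 2-mo WT, HGPS and 24-mo WT, with adjusted p of 0.0399 in HGPS and 0.0354 at 24 mo in edgeR's test, not past the cut-offs. Mmp13, the collagenase of hypertrophic chondrocytes, stood at 0.178 ± 0.0645, 0.601 ± 0.289 and 0.502 ± 0.317 CPM (SD, n = 6) in the same order, with adjusted p of 0.00654 and 0.0655 in edgeR's test. At 1 to 23 counts per mouse, Mmp13 passed the count filter through HGPS and 24-mo WT mice alone, which favoured a rise over 2-mo WT. Ihh, the Hedgehog ligand of prehypertrophic chondrocytes, had log2 fold changes of -0.74 (adjusted p = 0.0139) and 0.64 (adjusted p = 0.0723).

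Genes of the cartilage matrix were listed separately, 22 in all and 15 tested. In HGPS, Col11a1 and Chad, a leucine-rich protein of cartilage (log2 fold change 1.52, SE 0.29), were called higher and Hapln1, the link protein that ties aggrecan to hyaluronan, lower (-0.88, SE 0.14), which is 20% of the tested genes against 9.5% of all genes. Chad, at 2 to 20 counts per mouse, was not called under DESeq2, without a count filter or with the covariates, or without any of the HGPS mice or 2-mo WT mouse 2, 3 or 6, and the limits of Col11a1 are given above. With at least 50 counts in 6 mice, neither Col11a1 nor Chad was tested. Chad passed the filter of at least 10 counts in at least 6 mice only through the HGPS mice, as Col10a1 did. Its counts had to be higher there. Col11a1, at 1 to 432 counts per mouse, also passed that filter only with the HGPS mice. Neither call therefore adds support to the 20%. Hapln1 was not called in HGPS with the covariates. At 24 mo Hapln1 alone was called (6.67% of the list against 2% of all genes), and it was higher (1.58, SE 0.14). Col2a1, the main collagen of cartilage, was listed at 0 to 8 counts per mouse, 32 counts in all, and was not tested. Sox9, the regulator of chondrocyte identity, had a log2 fold change of 0.78 (adjusted p = 0.0883) in HGPS and 1.42 (adjusted p = 0.0133) at 24 mo. The summed level of the list overlapped between HGPS (308 to 448 CPM) and 2-mo WT (292 to 415 CPM).

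Collagen VIII is also known as a product of smooth muscle cells that have left the contractile state, and 20 genes associated with that change were listed, all tested. In HGPS 6 (30% of the list) rose past the cut-offs, against 5.27% of all tested genes called higher, and none fell. Besides Spp1 they were Cthrc1, a secreted protein of injured arteries (log2 fold change 3.63, SE 0.57), the protease inhibitor Timp1 (1.68, SE 0.17), the lectin Lgals3 (1.64, SE 0.19), Tnfrsf11b, which encodes osteoprotegerin (1.52, SE 0.15), and Mgp, an inhibitor of calcification (0.61, SE 0.12). At 24 mo 3 rose (15% of the list, against 1.28% of all tested genes called higher), Spp1, Tnfrsf11b (1.44, SE 0.15) and Fn1, which encodes fibronectin (0.84, SE 0.14), and none fell. The median log2 fold change of the list was 0.52 in HGPS and 0.12 at 24 mo. Mgp was called in 7 of 18 fits with 1 mouse left out, those without HGPS mouse 4 or 6 or 24-mo WT mouse 1, 2, 3, 4 or 6, and Fn1 in 13, not without 2-mo WT mouse 1, 2 or 4 or 24-mo WT mouse 4 or 5. With the fat and skeletal muscle scores as covariates, Cthrc1 and Mgp lost their call in HGPS, and Spp1 and Fn1 lost theirs at 24 mo. Spp1 and Lgals3 are also expressed by macrophages.

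Markers of the cell types in the wall moved in HGPS alongside these genes, where 5.27% of all tested genes were called higher and 4.23% lower. Of 12 smooth muscle markers 6 fell past the cut-offs and none rose, among them the contractile proteins Myh11 (log2 fold change -1.17) and Acta2 (-0.60), and the summed level of the list was 21942 to 30403 CPM in HGPS and 33078 to 42153 CPM in 2-mo WT. Acta2 was not called without HGPS mouse 2 or 6 or 2-mo WT mouse 2 or 5, or with the fat and skeletal muscle scores as covariates. Of 11 macrophage markers 7 rose and none fell, with sums of 975 to 1572 CPM in HGPS and 524 to 795 CPM in 2-mo WT. Of 10 fibroblast markers 2 fell and none rose, with sums of 3708 to 4796 CPM and 5948 to 6750 CPM. No marker of these 3 lists was at 0 in every mouse of a group. The part of smooth muscle, macrophage and fibroblast content in the Col8a1 and Col10a1 levels was not tested. Of 14 brown and white fat markers 3 rose past the cut-offs, none fell and none was at 0 in every mouse of a group, with sums of 1124 to 3475 CPM in HGPS and 267 to 1377 CPM in 2-mo WT. All 14 had positive log2 fold changes in HGPS (median 1.74), 13 of them at an adjusted p under 0.05 in edgeR's test. With the fat and skeletal muscle scores as covariates, the log2 fold change in HGPS was 2.49 (SE 0.45) for Col8a1 and 2.04 (SE 0.54) for Col10a1, without a test. Their SE without the covariates was 0.28 and 0.33. Over all tested genes, the fit with the covariates called 361 in HGPS, against 1445 in the main fit. Of the markers called in the main fit, it called 0 of the 7 macrophage, 2 of the 6 smooth muscle and 2 of the 2 fibroblast markers. A call and a fold change are different measures, so the members and the markers cannot be compared by these values. None of 10 endothelial markers was called in either comparison, with 2 and 0 at an unadjusted p under 0.05 in edgeR's test. At 24 mo, edgeR's test called 0 smooth muscle, macrophage or fat markers, with 4, 1 and 2 at an unadjusted p under 0.05, and 1 fibroblast marker, which fell. Of 9 skeletal muscle markers 4 were tested, and in HGPS Tnnt3 was called higher (log2 fold change 2.00) and Ckm lower (-1.08). Tnnt3, at 1 to 46 counts per mouse, passed the count filter only with the HGPS mice, so the filter favoured its rise there. Sums over the list were 3.91 to 7.18 CPM in HGPS, 4.21 to 5.52 CPM in 2-mo WT and 6.24 to 9.65 CPM in 24-mo WT. At 24 mo 0 were called, with 3 at an unadjusted p under 0.05 in edgeR's test. Of 8 Schwann cell markers 5 were tested and 0 were called in either comparison, with 4 at an unadjusted p under 0.05 in each.

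Among the HGPS mice themselves, Col8a1 varied widely. Its highest HGPS mouse was 4.02-fold above the lowest, against 1.54-fold in 2-mo WT and 1.53-fold in 24-mo WT. The SD of log2 CPM was 0.808 in HGPS, 0.219 in 2-mo WT and 0.234 in 24-mo WT. For Col8a2 the SD of log2 CPM was 0.525 in HGPS, 0.185 in 2-mo WT and 0.253 in 24-mo WT. Mouse 6 (66 d) and mouse 1 (69 d) of the HGPS group had the highest Col8a1 and also the highest Col8a2. For Col10a1, mouse 3 (75 d) and mouse 1 were highest in HGPS.

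How the members varied together was examined within the groups, after removal of the group means of log2 CPM, over 18 mice and 3 pairs of genes. Col8a1 and Col10a1 were positively related, past 0.05 after adjustment by rank but not by Pearson's r (Pearson's r = 0.58, permutation p = 0.0183, adjusted 0.055; Spearman's rho = 0.70, permutation p = 0.00425, adjusted 0.0127). Without the 2 mice farthest from the median of Col8a1, r was 0.61, and within 2-mo WT, HGPS and 24-mo WT alone it was 0.53, 0.67 and 0.79, where the 6 mice of no single group passed 0.05 (permutation p = 0.275, 0.167 and 0.0542). Col8a1 and Col8a2 had r = 0.60 (permutation p = 0.1, adjusted 0.15) and rho = 0.30 (permutation p = 0.342, adjusted 0.513). That value rested on the HGPS mice, where r was 0.78, against -0.36 in 2-mo WT and 0.03 in 24-mo WT, and it was 0.36 without the 2 farthest mice. Whether r differs between the groups was not tested. Col8a2 and Col10a1 had r = 0.17 (permutation p = 0.569) and rho = 0.15 (permutation p = 0.578). The Col10a1 values rest on 3 to 38 counts per mouse.

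**Figure D4:**
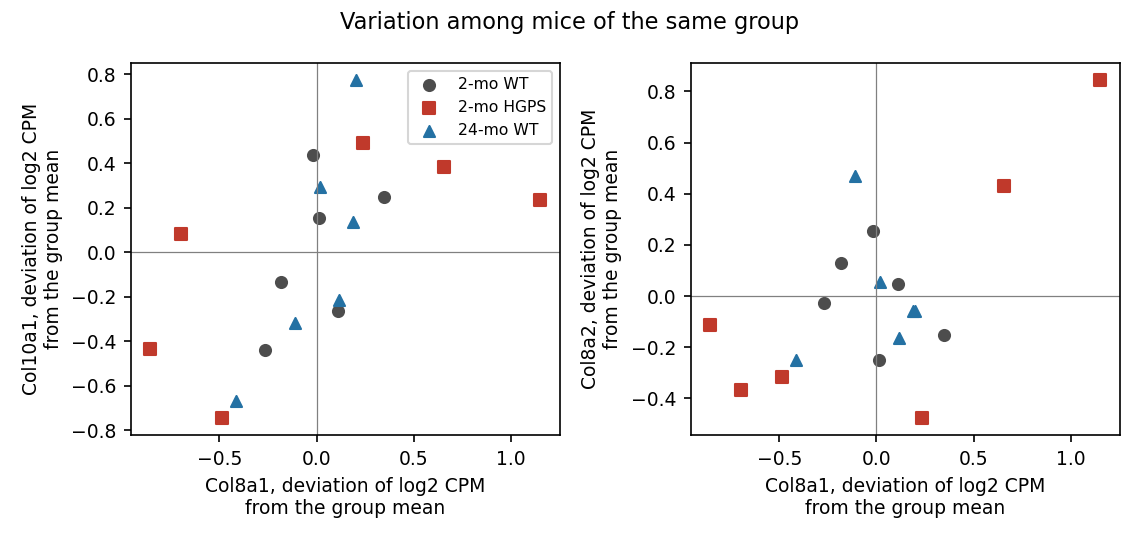
Deviation of each mouse from its group mean in log2 CPM, Col8a1 on the horizontal axis against Col10a1 (left) and Col8a2 (right), with the 6 mice of each group marked by shape and colour. For Col8a1 and Col10a1, r is 0.53, 0.67 and 0.79 in 2-mo WT, HGPS and 24-mo WT, none past 0.05 on its own, and for Col8a1 and Col8a2 it is -0.36, 0.78 and 0.03, with no test of the difference between groups.

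The genes most like each member were sought among the 10708 tested genes that averaged 100 counts or more, by Pearson's r of log2 CPM, which is a description over mice of shared libraries. Over all 18 mice, r includes the differences between groups. For Col8a1 and Col10a1 these include the HGPS difference that chose them, so genes that rise in HGPS rank high. The groups of Col8a2 overlapped, so r over all 18 mice cannot be compared between the members. Over all 18 mice, the genes nearest to Col8a1 were Wdfy4 (r = 0.96), Sdc3, which encodes a syndecan (0.95), Prnp, the prion protein gene (0.94), Il4ra, the receptor chain for IL-4 and IL-13 (0.94), and Dram1, a lysosomal membrane protein gene (0.93). With group means removed they were C1qtnf3 (0.89), Il4ra (0.83), the cartilage matrix gene Comp (0.78), Lyn, a kinase of myeloid and B cells (0.77), and C1qtnf5 (0.77). For Col8a2 with group means removed they were matrix and matrix-processing genes and the complement factor gene Cfb, namely Col16a1 (0.82), the membrane protease gene Mmp14 (0.80), Cpxm1 (0.79), Thbs2 (0.78) and Cfb (0.78). Over all 18 mice no gene came closer to Col8a2 than Thbs2 at 0.75, followed by H6pd (0.74), Tln2 (0.70), Cpxm1 (0.69) and Zfp217 (0.69). For Col10a1 the nearest genes over all mice were Prnp (0.95), Chp1 (0.93), Riok3 (0.93), Got1 (0.92) and Ctsd, a lysosomal protease gene (0.92). With group means removed they were Mkrn1 (0.87), Prnp (0.81), Slc25a37 (0.80), Epb41 (0.79) and Tent5c (0.78). Slc25a37, the mitochondrial iron importer mitoferrin, and Epb41, a protein of the red cell membrane skeleton, are best known from erythroid cells. These lists moved with the measure, and ranked by Spearman's rho 2 of the 5 genes remained for Col8a1 and 1 of 5 with group means removed, 0 and 1 for Col8a2, and 2 and 4 for Col10a1.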

How the data were processed

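RNA-seq of descending aorta from 18 mice was analysed. The authors prepared stranded, ribosomal RNA-depleted libraries and quantified the paired-end reads with salmon against GENCODE M23, a transcript set built on GRCm38.p6. Transcript estimates were combined to genes by tximport. The deposited values are estimated counts as whole numbers, not normalized. The submitters' processing notes also list Bowtie 0.12.2, an aligner that the study's methods do not mention, and which tool made the deposited counts was taken from the methods. Versions of salmon and tximport are not given in the sources used here. Groups came from the sample labels, and no column was left without a sample. Symbols, positions and lengths were taken from GENCODE M21, in which 54107 of 54281 identifiers were found.

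The 15210 genes that reached 10 counts in 6 or more mice were scaled with TMM and fitted by edgeR's quasi-likelihood method (version 4.0.16 under R 4.3.3, functions glmQLFit and glmQLFTest). All 3 groups entered together, which left 15 residual degrees of freedom. Adjustment of p-values followed Benjamini-Hochberg, across every tested gene. A gene was called when it changed by at least 1.5-fold with an adjusted p below 0.001, the cut-offs of the study. Standard errors (SE) were derived from the log2 fold change and its F statistic. Log2 CPM has a prior count of 2. Exact permutation tests are two-sided over mice. Correlations used 100000 permutations within groups. The script was tested on simulated data.

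The members and the gene lists were chosen with earlier results of these data known, so lists are described by counts and medians beside the share of all genes called. Named are the members, up to 4 called genes with the largest rise and 4 with the largest fall per list and comparison, a few genes with roles the text explains, and the 5 genes most like each member. Mmp13, Runx2, Sox9, Ihh, Ddr1, Ddr2, Itga1, Itga2, Col1a1, Col2a1, Col3a1, Col4a1, Acta2 and Myh11 were named for their role. Mgp and Mef2c fall outside this rule and were chosen with their values in view. Alternatives included DESeq2 1.42.0, other scalings, filters and cut-offs, and each mouse left out in turn.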

Additional observations from a re-analysis of the deposited data

Results flagged for a closer look

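Mouse 4 of the 24-mo WT group (762 d) had 31.3 CPM of Col8a2, apart from the other 5 mice of its group, which lay between 18.98 and 23.5 CPM. Its gap to the nearest mouse was 0.636 of the range of the group, above Dixon's critical value of 0.625 for 6 mice. Of 12 groups of values examined in this way it was the 1 that stood out, and chance singles out about 1 in 20. Leaving out each mouse in turn gave log2 fold changes of Col8a2 at 24 mo from 0.13 to 0.30.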

How the results depend on the processing

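The log2 fold changes of the members against 2-mo WT kept their direction under DESeq2, 3 other scalings, 2 other count filters, the WT or 2-mo groups alone and thinned libraries, except where stated, and no scaling moved the median of all genes by over 0.1. Without the HGPS mice in the fit, the 24-mo value of Col8a1 was 0.98 with an adjusted p of 9.35e-05 in edgeR's test. Over 10 alternatives its adjusted p ranged from 9.35e-05 to 0.268, and with 1 mouse left out from 0.00518 to 0.054. Col10a1 had too few counts to be tested with the WT mice alone or with at least 50 counts in 6 mice. With fat and skeletal muscle scores as covariates, Col8a2 at 24 mo was -0.20 (adjusted p = 0.722), and the cause was not tested. With these covariates 11 of the 39 list genes called in HGPS and 9 of the 16 called at 24 mo kept their call. Within 2-mo WT, r of Col8a1 with Col8a2 was -0.36. With 6 mice in place of 18, r of Col8a1 with Col10a1 was 0.53 (permutation p = 0.275), 0.67 (p = 0.167) and 0.79 (p = 0.0542) within 2-mo WT, HGPS and 24-mo WT.

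Counts of called genes in HGPS against 2-mo WT moved from 7 other collagens to 1 with the covariates, 17 at an adjusted p under 0.05 and 2 at stricter cut-offs, which asked for 0.8 on the log2 scale and an adjusted p below 0.0001. In the same order of settings, they moved from 1 C1q-domain gene to 0, 8 and 0, from 3 cartilage matrix genes to 0, 9 and 1, and from 2 collagen receptors to 1, 5 and 1. The 3 hypertrophic cartilage genes became 13 at an adjusted p under 0.05 and 1 at the stricter cut-offs, and the 6 modulated smooth muscle genes became 12 at an adjusted p under 0.05. C1q-domain genes numbered 4 under DESeq2, 2 without a filter and 2 in the 2-mo groups alone, and cartilage matrix genes numbered 1 with at least 50 counts. At 24 mo the covariates gave 1 C1q-domain gene, 1 hypertrophic cartilage gene and 1 modulated smooth muscle gene, and the stricter cut-offs gave 1 C1q-domain gene. An adjusted p under 0.05 gave 13 other collagens, 5 hypertrophic cartilage genes, 5 modulated smooth muscle genes and 4 cartilage matrix genes at 24 mo.

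Same-numbered mice are different animals, and their deviations from the group means correlated at -0.162 to 0.172, with no pair of groups over 0.1 in all 6 mice. With the replicate number as a block, the 24-mo value of Col8a1 was 1.01 (adjusted p = 0.0232), the HGPS value was 2.67, the log2 ratio difference stayed at 0.75, and 1 collagen receptor and 1 cartilage matrix gene were called in HGPS. The block ended the calls of Col11a1, Col12a1, Chad and Lair1 in HGPS and of Pth1r and Fn1 at 24 mo, and 30 of the 39 list genes called in HGPS and 13 of the 16 called at 24 mo kept theirs. Over all genes, 1265 were called in HGPS and 219 at 24 mo with the block, against 1445 and 304 without it.

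Col8a2 in HGPS against 24-mo WT, at 0.03, was -0.01 with the block and lay between -0.19 and 0.13 with 1 mouse left out, the lowest without HGPS mouse 6.

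Leaving out 1 mouse gave 2.47 to 2.92 for Col8a1, 0.05 to 0.36 for Col8a2 and 2.01 to 2.26 for Col10a1 in HGPS, and 0.93 to 1.05, 0.13 to 0.30 and 0.44 to 0.82 at 24 mo. The ratio difference at 24 mo lay between 0.69 and 0.87. In HGPS, other collagens numbered 4 to 8, the 4 without mouse 5 of 2-mo WT. C1q-domain genes numbered 0 (without HGPS mouse 6 or 2-mo WT mouse 4) to 2 (without HGPS mouse 4 or 5, 2-mo WT mouse 1 or 24-mo WT mouse 3). Collagen receptors numbered 1 without HGPS mouse 3 or 6 or 2-mo WT mouse 3, 4, 5 or 6, and 2 otherwise. Cartilage matrix genes numbered 1 (without 2-mo WT mouse 3 or 6) to 3. The depth limits Col10a1 most, at 3 to 8 counts per 2-mo WT mouse.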
